A study of Rattus norvegicus with 12 samples.

Results

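The proteasome genes Psma1, Psma2, Psma4, Psma5, Psmb1, Psmb4, Psmc2, Psmc4, Psme4 and Psmg4 are described here across the blood response of rats to lipopolysaccharide (LPS), a component of the outer membrane of Gram-negative bacteria. They are 10 of the 22 proteasome genes with a named probe and 10 of 3939 named genes on the arrays, and each had 1 probe. The genes were chosen by symbol with their measured ratios at 2 h and 6 h in view. Each of the 10 was past the threshold of the study-wide fit (limma, Benjamini-Hochberg adjusted p under 0.05) at 2 h or at 6 h, so their own counts and values below are a description and support nothing further.

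The study hybridised total RNA of Rattus norvegicus to 2-colour arrays, on which a control pool carried one dye and an LPS rat the other. The 2 h group held rats 1, 2 and 3 and the 6 h group rats 2, 4 and 6, each set against a same-time control pool on 2 arrays with the channels exchanged, called fluor and flip in the labels. That the RNA came from blood is known from the series title alone, and the labels used here give no strain, sex, age or LPS dose, nor whether rat 2 was 1 animal at both times. Where nothing says that the rats were independent, p-values measure only the spread between these samples. Each pool is 1 control sample whose own spread is left out of every comparison with it, and the 6 h minus 2 h difference also holds any difference between the pools.

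Every value is a log2 ratio of an LPS rat to its pool, so 0 means equal signal and negative values mean less signal than the pool. Ratios give no level of a gene and cannot be set against those of another probe as amounts of RNA. The reading of positive ratios as higher after LPS is likely but not settled, because no source used here names the dyes. Its basis is that, of the 8 measured textbook LPS-induced genes, 5 had positive ratios on all 12 arrays: Zfp36, Lcn2, Irf1, Il1r2 and Il1b. A rat's fluor and flip arrays nevertheless matched poorly over all probes, with Pearson correlations between -0.23 and 0.25 in the 6 rats. Fluor arrays of different rats, or flip arrays of different rats, correlated at 0.38 to 0.66 (30 pairs of arrays). Values are therefore also given on each set of arrays and with the flip arrays multiplied by -1, the reading that would hold if those arrays had been deposited unturned (called the turned reading).

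The proteasome is the protease that degrades ubiquitin-tagged proteins. Its core particle is a barrel of outer alpha rings and inner beta rings. The alpha rings form the gate and the beta rings carry the proteolytic sites in their catalytic members. Regulatory particles with a ring of ATPases unfold substrates and push them through the gate, other activators bind the same gate, and dedicated chaperones assemble the rings. Interferon signals can exchange catalytic beta subunits for the immunoproteasome subunits, which alters the peptides offered on MHC class I. When proteasome activity is short, the transcription factor Nfe2l1 raises proteasome genes in mammalian cells through antioxidant response elements, and its relative Nfe2l2 acts on such elements in oxidative stress.

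The promoters of the 4 alpha-subunit genes are printed because these genes encode parts of the same ring and yet lay on opposite sides of 0, as described next. Each is the RefSeq sequence from 250 bases before to 50 bases after the start in the RefSeq promoter table for GRCr8, on the gene's strand, 5′ to 3′. The regions are chr1:177887808-177888107 (minus strand) for Psma1, chr17:55260392-55260691 (minus strand) for Psma2, chr8:64236270-64236569 (plus strand) for Psma4 and chr2:198584255-198584554 (plus strand) for Psma5. Capitals mark CCAAT boxes (CCAAT or its reverse complement ATTGG) and GC boxes (GGGCGG or CCGCCC).
Psma1: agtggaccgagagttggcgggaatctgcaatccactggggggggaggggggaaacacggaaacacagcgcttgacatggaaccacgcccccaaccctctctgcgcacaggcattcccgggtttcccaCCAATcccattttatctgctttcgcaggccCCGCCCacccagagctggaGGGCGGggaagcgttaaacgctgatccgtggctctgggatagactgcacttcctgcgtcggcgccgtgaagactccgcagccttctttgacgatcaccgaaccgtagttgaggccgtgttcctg
Psma2: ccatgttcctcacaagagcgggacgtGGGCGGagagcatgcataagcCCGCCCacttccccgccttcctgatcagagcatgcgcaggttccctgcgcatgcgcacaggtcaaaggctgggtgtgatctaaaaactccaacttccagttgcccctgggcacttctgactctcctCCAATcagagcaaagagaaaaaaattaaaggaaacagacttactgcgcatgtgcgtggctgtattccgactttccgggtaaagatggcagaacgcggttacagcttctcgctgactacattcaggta
Psma4: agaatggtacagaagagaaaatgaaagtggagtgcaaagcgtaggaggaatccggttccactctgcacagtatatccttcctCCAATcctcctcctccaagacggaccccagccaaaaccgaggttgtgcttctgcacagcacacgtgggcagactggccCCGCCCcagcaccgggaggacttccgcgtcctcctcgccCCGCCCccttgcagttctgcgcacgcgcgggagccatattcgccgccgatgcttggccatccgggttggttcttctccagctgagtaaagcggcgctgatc
Psma5: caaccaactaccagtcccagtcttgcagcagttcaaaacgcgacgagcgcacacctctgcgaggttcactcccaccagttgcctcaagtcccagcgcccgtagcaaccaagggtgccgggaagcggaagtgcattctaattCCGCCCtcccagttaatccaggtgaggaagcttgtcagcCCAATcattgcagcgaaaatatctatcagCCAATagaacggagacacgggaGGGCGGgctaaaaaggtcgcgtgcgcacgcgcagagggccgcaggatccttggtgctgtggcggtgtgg

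All 4 held at least 1 CCAAT box and 2 GC boxes. The CCAAT box began 123 bases before the start in Psma1, 77 in Psma2 and 168 in Psma4, and Psma5 held 2, at 70 and 41 bases before it. Both elements were thus present in the promoters of genes below and above the pool. Over the 10 genes, 5 promoters held a CCAAT box (the 4 alpha genes and Psmb1), against 37.8% of the 3481 promoters of measured genes that the RefSeq table holds. A GC box was in 8 of 10, the exceptions being Psmb4 and Psmc2, against 61.5%. The antioxidant response element, searched as TGACNNNGC or GCNNNGTCA, was in the window of 1, Psme4, against 14.9%, and TATAAA (either strand) was in that of Psmb1, against 8.91%. The median GC content was 57.7% in the 10 windows and 60.7% in those of measured genes. For 6 of the 10 genes the start used is the outer bound of the gene given below. For the other 4 it lies inside that bound, by 3 bases in Psma5, 57 in Psmg4, 208 in Psmc4 and 1746 in Psmb1. A match is a run of letters in a window and not a shown binding site.

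Of the 10 genes, 8 were past the threshold at 2 h, 3 above the pool (Psma2, Psmc4 and Psme4) and 5 below it (Psma1, Psma4, Psmb1, Psmb4 and Psmg4). Over all named genes 19.2% were called at 2 h, 9.34% above and 9.82% below the pool. At 6 h 7 were past it, 2 above (Psma5 and Psmc4) and 5 below (Psma1, Psma4, Psmb4, Psmc2 and Psmg4), while 19.0% of all named genes were called, 8.30% above and 10.7% below. The median ratio of the 10 genes was -0.12 at 2 h and -0.10 at 6 h, and that of all named genes was -0.007 and 0.007. The set was therefore mixed in sign, with the genes below the pool in the majority at both times.

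**Figure D1:**
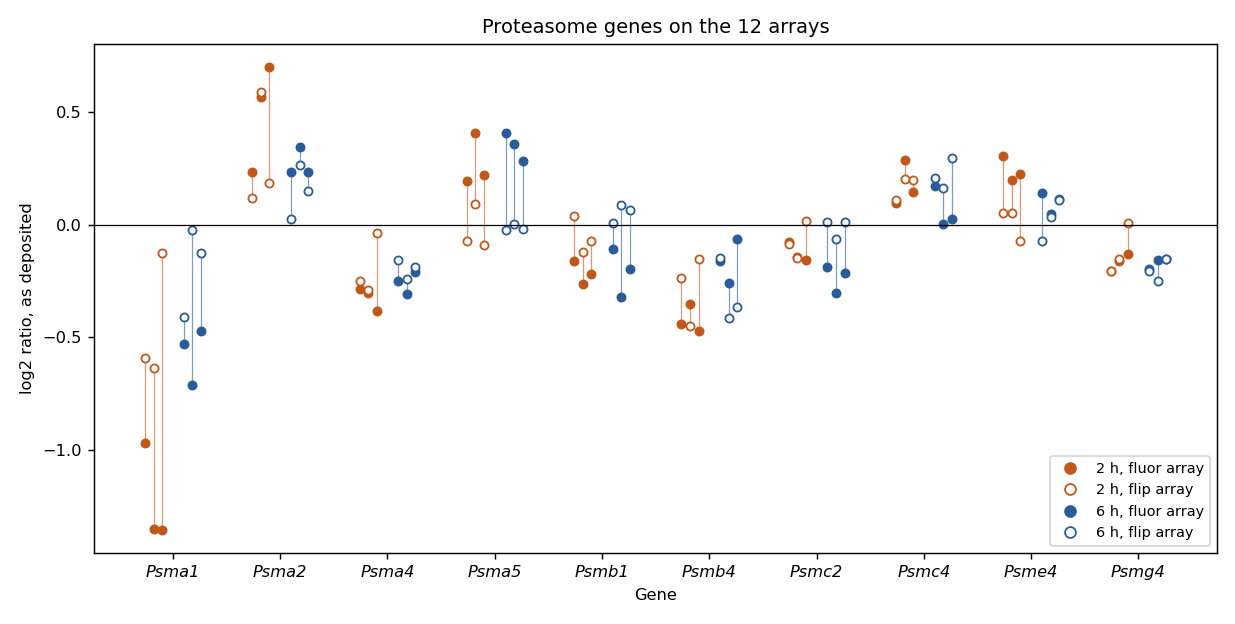
Log2 ratio of LPS rat to control pool (vertical axis) for each of the 10 proteasome genes on each of the 12 arrays, with filled symbols for fluor arrays, open symbols for flip arrays, orange for 2 h, blue for 6 h, and a line joining the 2 arrays of a rat. Psma1 is the farthest below 0, at -0.84 on average at 2 h, and Psma2 the farthest above, at 0.40.

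Psma1, an alpha subunit of the core particle (GRCr8 chr1:177876838-177887857), had the largest ratios of the set. At 2 h the rat means were -0.78 in rat 1, -0.995 in rat 2 and -0.74 in rat 3, a mean of -0.84 ± 0.14 (SD, n = 3) or 0.559 of the pool. At 6 h they were -0.47 in rat 2, -0.37 in rat 4 and -0.30 in rat 6, a mean of -0.38 ± 0.085 or 0.769 of the pool. Every 2 h rat was lower than every 6 h rat, and all 12 arrays were below 0. The depth of the ratio depended on the array: fluor arrays averaged -1.23 at 2 h and flip arrays -0.45, and the flip array of rat 3 read -0.13 where its fluor array read -1.35. At 6 h the fluor mean was -0.57 and the flip mean -0.19, with a flip value of -0.023 in rat 4.

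Psma4, another alpha subunit (chr8:64236520-64243980), was below the pool at a similar size at both times. Its rat means were -0.27, -0.30 and -0.21 at 2 h and -0.20, -0.27 and -0.20 at 6 h. These average -0.26 ± 0.044 and -0.23 ± 0.042 (n = 3 each), or 0.836 and 0.855 of the pool. All 12 arrays were below 0, the groups overlapped, and the fluor and flip means were -0.32 and -0.19 at 2 h and -0.26 and -0.20 at 6 h. The widest gap within a rat was in rat 3 of the 2 h group, with -0.38 on the fluor array and -0.039 on the flip array. Subtracting the median of the 10 probes nearest in number left -0.20 at 2 h and -0.13 at 6 h.

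Psma2, an alpha subunit of the same rings (chr17:55250054-55260441), lay on the other side. Its rat means were 0.18, 0.58 and 0.44 at 2 h, a mean of 0.40 ± 0.20 or 1.32 times the pool. At 6 h they were 0.13, 0.30 and 0.19, a mean of 0.21 ± 0.088 or 1.16 times the pool, which did not pass the threshold. All 12 arrays were above 0. The 2 h rats were spread the widest of the set in this gene, and rat 1 of that group lay among the 6 h rats. Psma1 and Psma2 thus lay on opposite sides of 0 on every array of both times.

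Psma5, also an alpha subunit (chr2:198584502-198607867), had rat means of 0.062, 0.25 and 0.064 at 2 h and of 0.19, 0.18 and 0.13 at 6 h. The means were 0.13 ± 0.11 and 0.17 ± 0.032, and only the 6 h mean was past the threshold, at 1.12 times the pool. This ratio came from the fluor arrays. They averaged 0.27 at 2 h and 0.35 at 6 h, whereas the flip arrays averaged -0.023 and -0.012, and 8 of 12 arrays were above 0. With the flip arrays multiplied by -1 the mean was 0.15 at 2 h and 0.18 at 6 h. Because the flip means were near 0, both readings mainly repeat the fluor arrays, and their like sign is no further support.

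Psmb4, a structural beta subunit without a catalytic site of its own (chr2:185131787-185134561), had rat means of -0.34, -0.40 and -0.31 at 2 h, a mean of -0.35 ± 0.045 or 0.784 of the pool. At 6 h they were -0.15, -0.34 and -0.21, a mean of -0.23 ± 0.094 or 0.850 of the pool. All 12 arrays were below 0. Fluor arrays were the lower at 2 h (-0.42 against -0.28 on flip arrays) and the higher at 6 h (-0.16 against -0.31). The probes numbered next to it were below 0 as well, with a median of -0.17 at 2 h and -0.19 at 6 h over the nearest 10. Subtracting that median left Psmb4 at -0.15 at 2 h and -0.0027 at 6 h, neither past the threshold.

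Psmb1, likewise a beta subunit without a catalytic site (chr1:65115770-65136516), was closer to the pool. Its rat means were -0.062, -0.19 and -0.15 at 2 h (mean -0.13 ± 0.066) and -0.049, -0.12 and -0.066 at 6 h (mean -0.078 ± 0.036). Only the 2 h mean was past the threshold, at 0.912 of the pool. Its fluor arrays were all below 0 and averaged -0.21 at both times, while its flip arrays averaged -0.053 at 2 h and 0.054 at 6 h. Subtracting the median of the neighbouring probes (-0.065 at 2 h) left Psmb1 at -0.017 at 2 h, no longer past the threshold. The constitutive catalytic subunit Psmb7 and the structural Psmb2 were not past the threshold and are described with the other genes below.

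Of the ATPases of the regulatory particle, Psmc4 (chr1:92476690-92485268) was above the pool and Psmc2 (chr4:14148080-14162390) below it. Psmc4 had rat means of 0.10, 0.24 and 0.17 at 2 h and of 0.19, 0.082 and 0.16 at 6 h. Its means were 0.17 ± 0.071 and 0.14 ± 0.056, or 1.13 and 1.11 times the pool, and all 12 arrays were above 0. Its fluor and flip means nearly coincided at 2 h (0.18 and 0.17), and at 6 h the flip arrays were the higher (0.067 and 0.22). Psmc2 had rat means of -0.082, -0.15 and -0.069 at 2 h and of -0.089, -0.18 and -0.10 at 6 h, and means of -0.099 ± 0.041 and -0.12 ± 0.051. Only its 6 h mean was past the threshold, at 0.917 of the pool, and there the fluor arrays averaged -0.24 and the flip arrays -0.013. The 10 probes nearest in number to Psmc2 had a median of -0.072 at 2 h and -0.12 at 6 h, as far below 0 as the gene itself at 6 h. Subtracting it left Psmc2 at -0.018 and 0.017, and Psmc4 at 0.17 and 0.13, of which only the 2 h value of Psmc4 was past the threshold.

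Psme4 encodes a large activator that binds the gate of the core particle without ubiquitin or ATP (chr14:108706643-108810330). Its rat means were 0.18, 0.13 and 0.076 at 2 h and 0.035, 0.039 and 0.11 at 6 h. Its mean was 0.13 ± 0.052 at 2 h, 1.09 times the pool, and 0.061 ± 0.043 at 6 h, which did not pass. Fluor arrays carried the 2 h value, with a mean of 0.24 against 0.012 on flip arrays. The 10 probes nearest to it had a median of 0.086 at 2 h, and subtracting it left Psme4 at 0.049, no longer past the threshold. Psmg4, a chaperone that helps assemble the alpha ring (chr17:30916031-30923430), had rat means of -0.21, -0.16 and -0.061 at 2 h and of -0.20, -0.20 and -0.15 at 6 h. Its means of -0.14 ± 0.074 and -0.19 ± 0.029 correspond to 0.907 and 0.879 of the pool. The fluor and flip arrays of Psmg4 read alike, at -0.16 and -0.12 at 2 h and at -0.17 and -0.20 at 6 h, and 11 of 12 arrays were below 0.

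The question whether the genes changed between the times was addressed by 6 h minus 2 h. None of the 10 passed the threshold by limma, and 1, Psma1, was under an unadjusted p of 0.05. Over all named genes 0.508% passed. Psma1 had the largest difference, 0.46 with a standard error (SE) of 0.079, followed by Psma2 with -0.19 (SE 0.10) and Psmb4 with 0.12 (SE 0.058). These 3 were nearer to the pool at 6 h than at 2 h. The differences of the other 7 lay between -0.066 (Psme4, SE 0.046) and 0.056 (Psmb1, SE 0.049). Psma1 was the 1 gene of the set whose 2 h and 6 h rats did not overlap, which held for 21.7% of all named genes.

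**Figure D2:**
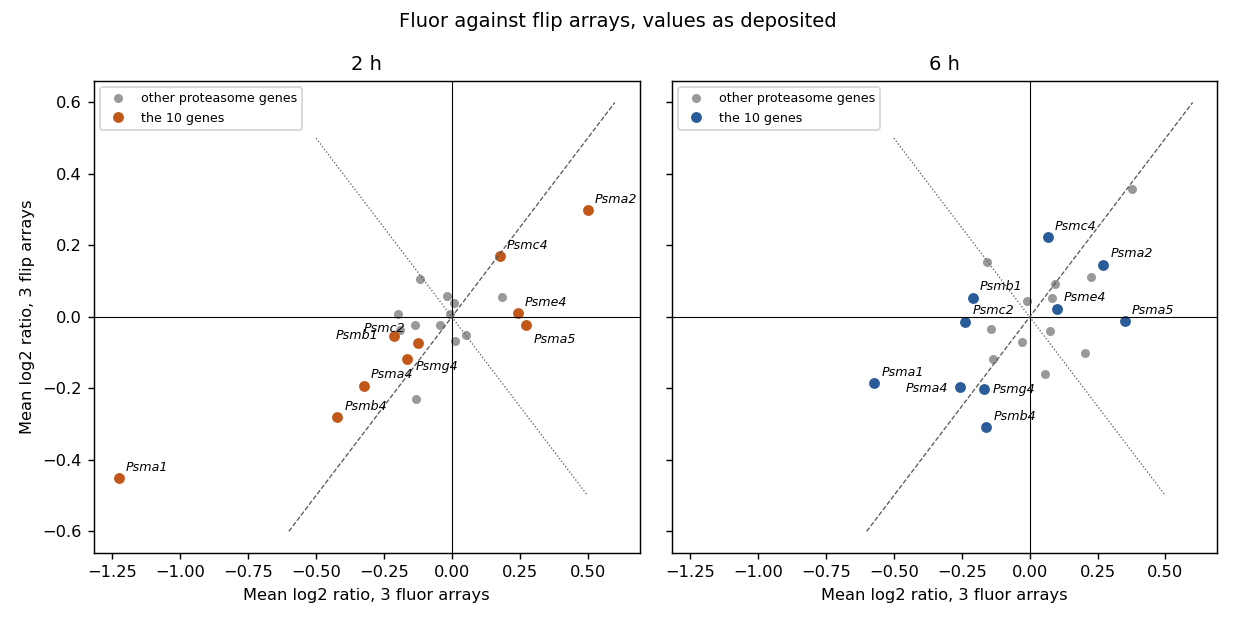
Mean of the 3 fluor arrays (horizontal axis) against mean of the 3 flip arrays (vertical axis), in log2 ratio, for the 10 genes (coloured) and the other 12 measured proteasome genes (grey) at 2 h and 6 h. Points on the dashed line have equal values on both, and points near the dotted line have opposite ones. Psma1 at 2 h lies at -1.23 on fluor and -0.45 on flip arrays, and Psma5 lies beside the horizontal line at 0 at both times.

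Agreement of the fluor and flip arrays separated the set. On all 12 arrays 5 genes had the same sign (Psma1, Psma2, Psma4, Psmb4 and Psmc4), against 10.3% of all named genes. Turning the sign of the flip arrays gave 3 calls among the 10 at 2 h (Psma1 and Psme4, and Psma5, not called before), where 14.2% of all named genes were. At 6 h 3 were called (Psma5 and Psmc2, and Psmb1, not called before) against 37.1%. Under that reading Psma1 stayed below 0, at -0.39 at 2 h and -0.19 at 6 h, and Psma2 stayed above it, at 0.10 and 0.063. Psma4 was at -0.066 and -0.031. Psmb4, Psmc4 and Psmg4 took the other sign at 6 h, at 0.074, -0.078 and 0.017.

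Across the 12 arrays the genes also differed in how they moved with one another. Psma1 correlated with Psma4 at r = 0.76 and with Psma2 at r = -0.70, and Psma5 with Psmb1 at r = -0.81. Genes outside the set with profiles most like Psma1 were Id3 (r = 0.94), Nr3c2 (0.93), Mtpn (0.92), Dbi (0.92) and Csnk1a1 (0.92). Those most like the mean of the 6 core particle genes were AKR1C3l1 (0.87), Camkk1 (0.87), Snd1 (0.85), Ly6i (0.84) and Csnk1a1 (0.84). These are Pearson correlations over 12 arrays that share pools, dye orientation and rats, and they are given as a description.

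The other 12 measured proteasome genes are given beside the set. Because the set was chosen with ratios in view, the division of calls between the set and the others was largely fixed by that choice. It is a description and is no evidence on the complex as a whole. Among the other 12, 0 were called at 2 h by limma (3 at an unadjusted p under 0.05), 1 at 6 h (5 unadjusted) and 0 between the times (2 unadjusted). Their median ratio was -0.017 at 2 h and 0.017 at 6 h. Of all 22, 11 were called at 2 h or 6 h or between them, against 28.1% of all named genes, and 10 of these 11 are the genes described above. Just inside the threshold lay Psmb9, outside the set, with a smallest adjusted p of 0.0395 and a 6 h mean of 0.37. Within the set it was Psmb1, with a smallest adjusted p of 0.0387 and a 2 h mean of -0.13. Just outside lay Psmc5, at 0.0748 with a 2 h mean of -0.080, and Sem1, at 0.0777 with a 6 h mean of -0.13.

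**Figure D3:**
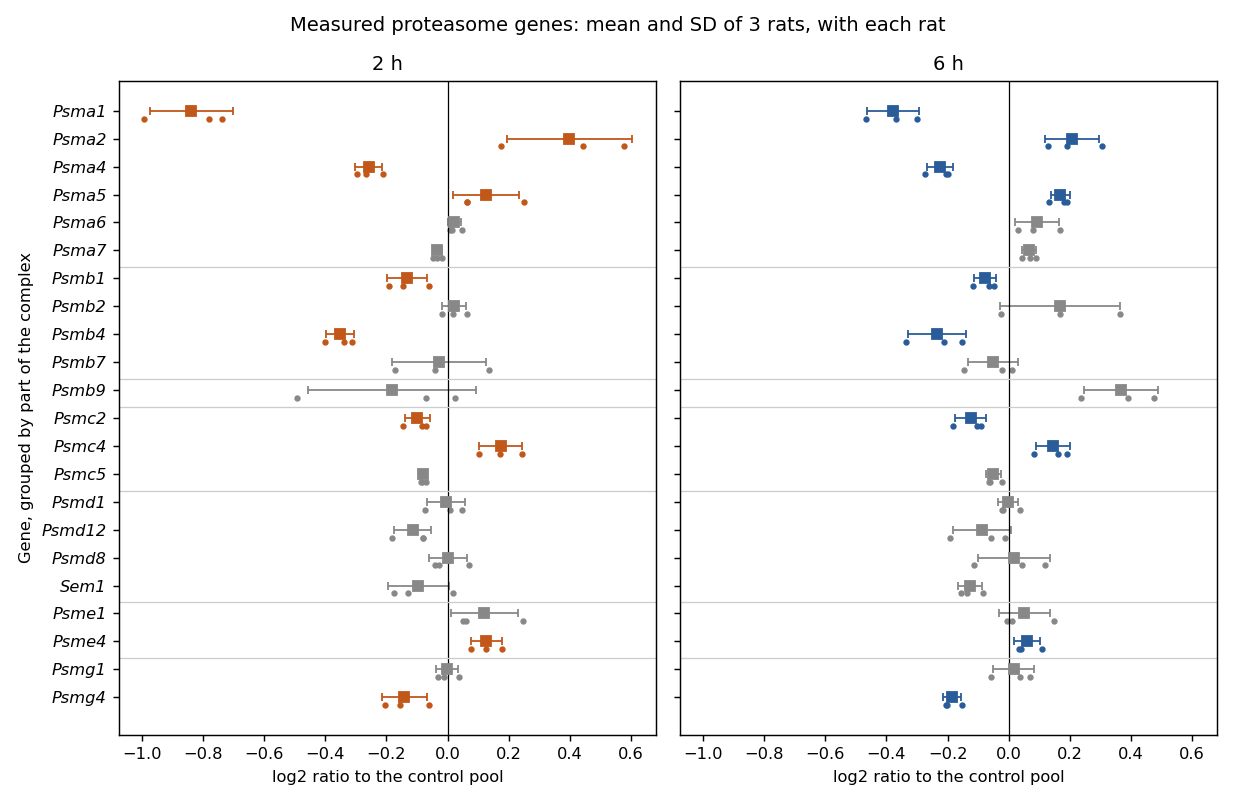
Mean log2 ratio to the control pool ± SD of 3 rats (squares with bars) and single rats (dots) for the 22 measured proteasome genes, ordered by part of the complex, at 2 h and at 6 h. The 10 genes described here are coloured and the other 12 grey, most of which lie within 0.15 of 0.

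The gene outside the set that rose at 6 h was Psmb9, the interferon-inducible immunoproteasome subunit. Its rat means were 0.48 in rat 2, 0.39 in rat 4 and 0.24 in rat 6, a mean of 0.37 ± 0.12 (n = 3) or 1.29 times the pool (limma, adjusted p = 0.0395). At 2 h they were -0.072, -0.49 and 0.023, a mean of -0.18 ± 0.28 (adjusted p = 0.216), and the difference between the times was 0.55 (SE 0.14, adjusted p = 0.128). All 6 h rats were above all 2 h rats. The 6 h call was lost when any 1 of the 6 h rats was left out and when rat 1 of the 2 h group was. It was also lost on the fluor arrays alone (adjusted p = 0.0502) and under quantile normalization (adjusted p = 0.0750). Under the turned reading of the flip arrays its 6 h mean was 0.0099 (adjusted p = 0.901).

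Among the alpha subunits outside the set, Psma6 had means of 0.022 at 2 h and 0.093 at 6 h. Psma7 had means of -0.033 ± 0.015 and 0.067 ± 0.024, and neither passed. Among the beta subunits, Psmb2 had means of 0.021 and 0.17, and the catalytic Psmb7 of -0.027 and -0.051. These alpha and beta genes lay closer to 0 at 2 h than any of the 6 core particle genes in the set. The set was chosen with these ratios in view, so that difference follows from the choice and supports nothing further. The ATPase Psmc5 was at -0.080 ± 0.0085 and -0.050. Of the non-ATPase subunits of the regulatory particle, Psmd1 was at -0.0060 and -0.00076, Psmd8 at 0.00052 and 0.017, Psmd12 at -0.11 and -0.088, and the small subunit Sem1 at -0.096 and -0.13. Psme1, a subunit of the interferon-inducible activator, was at 0.12 and 0.052, and the assembly chaperone Psmg1 at -0.00076 and 0.017.

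Genes upstream of the proteasome were examined as the ubiquitin pathway, a list of 140 genes of which 47 were measured. At 2 h 3 rose and 2 fell, or 10.6% against 19.2% of all named genes, and at 6 h 6 rose and 2 fell, or 17.0% against 19.0%. Between the times 0 were called by limma (6 at an unadjusted p under 0.05). The median of the 47 was 0.035 at 2 h and 0.027 at 6 h. Both counts were under the share of all genes as deposited. With the flip arrays multiplied by -1 both were above it, at 17.0% against 14.2% at 2 h and 46.8% against 37.1% at 6 h.

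The ubiquitin-activating and -conjugating enzymes, which load and transfer ubiquitin, held 15 measured genes, of which 3 rose and 1 fell at 2 h and 4 rose at 6 h. Ube2a, a conjugating enzyme that works in DNA damage tolerance, rose at both times, with rat means of 0.31, 0.46 and 0.27 at 2 h (mean 0.34 ± 0.099, adjusted p = 0.00436). At 6 h they were 0.24, 0.19 and 0.36 (mean 0.26 ± 0.089, adjusted p = 0.0115), and all 6 rats were above 0. Ube2f, which conjugates the ubiquitin-like protein NEDD8, fell at 2 h (-0.30 ± 0.13, adjusted p = 0.0218) and was at 0.0039 at 6 h. Ube2r2 rose at 2 h (0.16 ± 0.096, adjusted p = 0.0337) and Ube2k at 6 h (0.15 ± 0.041, adjusted p = 0.0118).

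Of 14 ligase subunits, which pick the substrate, 0 were called at 2 h and 2 rose at 6 h. These were Eloc, the elongin C subunit of cullin ligases (0.15 ± 0.011, adjusted p = 0.0136), and Anapc10 of the anaphase-promoting complex (0.12 ± 0.028, adjusted p = 0.0490). Of 9 deubiquitinases, which remove ubiquitin, 1 fell at 2 h and 2 at 6 h. Usp3 fell at both times (-0.14 ± 0.028, adjusted p = 0.0188, and -0.16 ± 0.035, adjusted p = 0.0112) and Usp9x at 6 h (-0.16 ± 0.059, adjusted p = 0.0486). Of 9 shuttle factors, which carry tagged proteins to the proteasome, 0 were called by limma at either time (1 at 2 h and 3 at 6 h at an unadjusted p under 0.05).

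**Figure D4:**
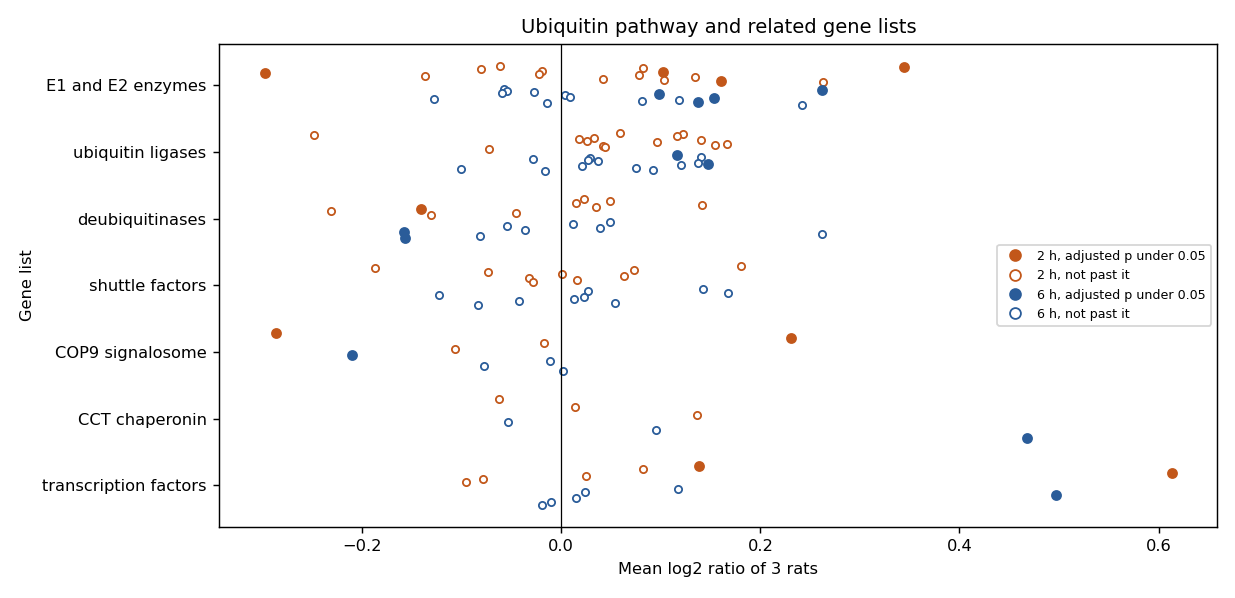
Mean log2 ratio to the control pool (n = 3 rats) of each measured gene of the ubiquitin pathway, COP9, chaperonin and transcription factor lists at 2 h and 6 h, with filled symbols where the limma adjusted p is under 0.05. Nfe2l2 is the highest at 0.61 at 2 h, and Cops7a is among the lowest at -0.29.

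Of 13 measured genes for relatives of the regulatory particle, a chaperonin and controlling transcription factors, 4 were called at 2 h (30.8%, against 19.2% of all named genes) and 3 at 6 h (23.1%, against 19.0%). Of 4 measured subunits of the COP9 signalosome, a complex related to the proteasome lid, Cops7a fell at both times (-0.29 ± 0.13, adjusted p = 0.00850, and -0.21 ± 0.024, adjusted p = 0.0245). Its paralog Cops7b rose at 2 h (0.23 ± 0.10, adjusted p = 0.0309). Of 3 measured subunits of the CCT chaperonin, which folds actin and tubulin, Tcp1 rose at 6 h (0.47 ± 0.081, adjusted p = 0.00131), with rat means of 0.46, 0.39 and 0.55. Of 6 transcription factors tied to proteasome or antioxidant genes, 2 rose at 2 h and 1 at 6 h. Nfe2l2 had rat means of 0.76, 0.72 and 0.36 at 2 h (mean 0.61 ± 0.22, adjusted p = 0.00384) and of 0.63, 0.39 and 0.47 at 6 h (mean 0.50 ± 0.12, adjusted p = 0.00747). Its dimer partner Mafg rose at 2 h (0.14 ± 0.079, adjusted p = 0.0403). Subtracting the median of neighbouring probes left Mafg at 0.015 at 2 h (limma adjusted p = 0.747), and on the flip arrays alone it was at 0.046 (adjusted p = 0.535). Of 5 genes of MHC class I presentation, which uses peptides made by the proteasome, B2m rose at 6 h (0.36 ± 0.12, adjusted p = 0.0143) and Pdia3 fell at 2 h (-0.19 ± 0.083, adjusted p = 0.0338). The more variable of the 2 B2m probes alone gave 0.67 at 6 h. The 6 h mean of B2m was 0.57 on fluor arrays and 0.16 on flip arrays, the latter not past the threshold alone.

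Of the 20 calls on genes named from these lists and on Psmb9, 4 were kept whichever rat was left out: Ube2a, Cops7a and Nfe2l2 at 2 h and Tcp1 at 6 h. On the flip arrays alone Ube2a (0.23, limma adjusted p = 0.0645) and Cops7a (-0.066, adjusted p = 0.783) lost these 2 h calls. That of Cops7a was also lost with arrays scaled to a common spread (adjusted p = 0.0919) and under quantile normalization (adjusted p = 0.0566). The more variable of its 2 probes alone gave -0.48 at 2 h. Ube2r2 and Mafg lost theirs without any 1 of the 6 rats. The 6 h calls of Eloc, Anapc10, Usp3, Usp9x and Cops7a were lost without any 1 of the 6 h rats, and those of Anapc10 and Usp9x also without 2 h rat 1, that of Anapc10 without 2 h rat 3 as well. At 2 h Ube2f was lost without 2 h rat 2 or 3, Usp3 without 2 h rat 1 or 2, and Cops7b and Pdia3 without 2 h rat 2 or 3 or 6 h rat 2. At 6 h Ube2a was lost without rat 2 or 6, Ube2k and B2m without rat 4 or 6, and Nfe2l2 without rat 2. Subtracting neighbouring probes removed the call of Mafg at 2 h and those of Ube2k, Eloc, Anapc10, Usp3 and Usp9x at 6 h. Under the turned reading 7 of the 20 calls were kept: Ube2a at both times, Ube2r2, Cops7b and Pdia3 at 2 h, and Usp9x and B2m at 6 h. The other 13 were lost, among them Cops7a at 2 h (-0.22, adjusted p = 0.134) and Tcp1 at 6 h (0.081, adjusted p = 0.145), and Eloc passed with the other sign. Nfe2l2 was at 0.11 at 2 h and -0.067 at 6 h under that reading and passed at neither. The 7 calls kept under it were each lost on the flip arrays alone. There Ube2r2 (0.048), Cops7b (0.031) and Pdia3 (-0.023) at 2 h and Usp9x (-0.023) at 6 h were near 0. For these genes both readings mainly repeat the fluor arrays, and a kept call is no further support.

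Blood is a mixture, and in bulk RNA fewer cells of a type and less RNA per cell cannot be told apart. Over all named genes 9.34% were called above and 9.82% below the pool at 2 h, and 8.30% and 10.7% at 6 h. The marker lists are too short for their counts to be set firmly against those shares. Of 3 neutrophil markers 2 rose at each time, with rat medians of 0.43 to 1.06 at 2 h and 0.60 to 0.62 at 6 h. Of 4 T cell markers 2 fell at each time (rat medians -0.30 to -0.23 and -0.43 to -0.15). Of 2 B cell markers 2 fell at 2 h and 1 at 6 h (-0.33 to -0.23 and -0.43 to -0.38). Of 3 monocyte markers 1 fell at 2 h and 2 at 6 h (-0.22 to -0.16 and -0.23 to -0.10), and of 3 natural killer markers 2 rose at each time (0.25 to 0.55 and 0.21 to 0.30). Of 9 erythroid markers 5 rose and 1 fell at 2 h, and 1 rose and 2 fell at 6 h (0.24 to 0.44 and 0.029 to 0.39), and of 2 platelet markers 1 rose at 2 h and 0 were called at 6 h (0.071 to 0.38 and -0.42 to -0.025). As deposited, the medians of the T cell, B cell and monocyte lists were below 0 at both times, as were those of the 10 proteasome genes, and the medians of the neutrophil, natural killer and erythroid lists were above 0. Single markers departed from their lists: S100a8 was below 0 at both times (-0.083 and -0.053), and so was Il2rb at 6 h (-0.033). In the erythroid list the globin genes Hba-a1 (-0.14 and -0.12) and Hbb (-0.12 and -0.16) were below 0 at both times, and Epb42 at 2 h (-0.13). With the flip arrays multiplied by -1 the neutrophil median was -0.018 at 2 h and the natural killer median -0.067 at 6 h. Ratios give no level, so which markers are near 0 in amount is not known. The medians of the 10 proteasome genes were -0.15 to -0.065 over the 2 h rats and -0.15 to -0.069 over the 6 h rats, and the part of cell composition in them was not tested.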

How the data were processed

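The values the authors deposited are log2 ratios, 1 for each probe of each array. Base 2 was read from the values: raised as powers of 2, 100% of them fell on steps of 0.0001 (within 0.05 of a step), against 8.56% to 12.9% with other bases. Scanner, dyes, background correction and normalization: not given in the sources used here. The medians of the arrays ran from -0.020 to 0.0083. No intensities were at hand, so spots below background are unknown, and the number of arrays limits the precision.

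Of 7200 probes, 4190 had 1 symbol in the platform annotation (4184 with an identifier in the GRCr8 gene table), 2964 had no symbol and 46 several. Names were used where there was 1 symbol, and probes of a gene were averaged, giving 3939 genes. The 2 arrays of a rat were averaged, and the 6 rats were fitted with limma 3.58.1 (R 4.3.3, lmFit and eBayes) as 2 groups, with adjusted p under 0.05 as the threshold over all genes. The fit was tested on simulated data. Errors are SD over 3 rats. Promoters were searched with Python 3.11.15.

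The members and all gene lists were chosen with earlier results of these data known. All members and measured proteasome genes are named. Of each other list, at most the 4 called genes with the largest mean are named, of marker lists counts and medians are given, and 5 genes are named for each likeness. Alternatives were the dye orientation, each set of arrays, scaling, the fit, the probe choice, neighbouring probes, the threshold and each rat left out.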

Additional observations from a re-analysis of the deposited data

Results flagged for a closer look

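Psma7, an alpha subunit of the core particle, was below the pool in all 3 rats at 2 h (-0.017, -0.047 and -0.035) and above it in all 3 at 6 h (0.069, 0.090 and 0.043). The difference was 0.100 (SE 0.038), and it did not pass the limma fit of 6 h minus 2 h (adjusted p = 0.296). It stands here because every rat of one time was on the opposite side of 0 from every rat of the other, and that split itself was not tested. Rats of the 2 times that did not overlap, a looser condition that includes such splits, were found in 21.7% of all named genes.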

How the results depend on the processing

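The 8, 0 and 5 calls at 2 h (the 10 genes, the other 12 proteasome genes, the ubiquitin pathway) and the 7, 1 and 8 at 6 h changed as follows. With the flip arrays multiplied by -1 the 10 genes gave 3 calls at 2 h and 3 at 6 h, the other proteasome genes 3 at 6 h, and the ubiquitin pathway 8 and 22. Psmb4 (0.074), Psmc4 (-0.078), Psmg4 (0.017), Eloc (-0.16), Usp3 (0.038) and Nfe2l2 (-0.067) took the other sign at 6 h. Fluor arrays alone gave 2 calls among other proteasome genes at 2 h and 13 and 16 in the ubiquitin pathway, with Eloc at -0.010 at 6 h. Flip arrays alone gave the 10 genes 2 and 4 calls, the other proteasome genes 3 at 6 h and the ubiquitin pathway 0 and 5, with Psma5 at -0.012 at 6 h. At 2 h the ubiquitin pathway had 11 calls with scaled arrays and 10 with quantile normalization. A model of the 12 single arrays, with dye as a term and rat as random block, gave it 13 and 14 calls, and 1 between the times in each of the non-member lists. Fitting the rats of 1 time alone gave 4 calls of the 10 genes and 3 of the ubiquitin pathway at 2 h, and 2 of the other proteasome genes at 6 h. Subtracting neighbouring probes left the 10 genes 4 calls and the ubiquitin pathway 4 at 6 h, with Psmc2 at 0.017. Under adjusted p of 0.01 the 10 genes had 3 calls at each time, the ubiquitin pathway 1 and 0, and the other proteasome genes 0 at 6 h.

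Leaving out each rat gave the 10 genes 3 to 6 calls at 2 h (3 when 2 h rat 2 was left out, 4 when 2 h rat 3 was, and 5 for each 6 h rat) and 3 to 7 at 6 h (3 without 6 h rat 2 or 4, 4 without rat 6). The other proteasome genes had 0 to 1 at 6 h, and the ubiquitin pathway 1 to 4 and 1 to 12. Psma1, Psma4 and Psmb4 kept their 2 h calls whichever rat was left out. Of 480 values of the 10 genes under alternatives, 19 took the other sign: 1 at 2 h, 6 at 6 h and 12 of the differences between the times. Of these 19, 5 were values past the threshold as deposited, all at 6 h and all given above. Some of the 480 could not change: leaving out a rat of one time leaves the mean of the other time as it was. The share that kept its sign is therefore no measure of how stable the signs are. No paired analysis was possible because the groups share only the rat number 2. The cause of these changes was not tested.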
